A study of Homo sapiens with 24 samples.

Results

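CXCL8 and 9 other inflammatory cytokine genes were followed through SW1783 cells, a human astrocytoma line, treated for 24 h with extracts of Schisandrae Fructus, the fruit of Schisandra chinensis. The members were CXCL8, CXCL1, CXCL2, CXCL3, IL6, IL1A, IL1B, CCL2, LIF and IL11, found by their symbols among 60675 genes of the deposited table, of which 19586 are protein-coding, and all 10 were present. CXCL8 was chosen because it was among the largest rises at the high doses, so the high-dose values of the set are descriptions and carry no test. Batch A held vehicle A and the hot water extract (WESF) at a low (20 µg/mL), a medium (100 µg/mL) and a high dose (500 µg/mL), and batch B held vehicle B and the ethanol extract (EESF) at a low (12.4 µg/mL), a medium (62 µg/mL) and a high dose (310 µg/mL). All cells, controls included, received the DMSO vehicle, and each of the 8 groups had 3 libraries. The high dose of EESF was set, per the methods, at a mildly toxic concentration, whereas the high dose of WESF showed no toxicity there. Each extract came with its own batch and its own doses, so extract, batch and dose cannot be told apart between them. Library depth was 18727797 to 32567395 expected counts. The labels do not say that libraries came from separate cultures, so the spread between them may be technical. SW1783 is 1 line grown alone, and in bulk RNA fewer expressing cells and less RNA per cell cannot be told apart.

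Inflammatory cytokines are secreted proteins by which injured or infected tissue calls in and activates immune cells. CXCL8 (interleukin-8) and CXCL1, CXCL2 and CXCL3 are chemokines with an ELR motif that attract neutrophils through CXCR1 and CXCR2, and CCL2 attracts monocytes through CCR2. IL1A and IL1B signal through IL1R1 to NF-κB, whereas IL6, LIF and IL11 signal through the shared receptor subunit gp130 (IL6ST) to STAT3. NF-κB and AP-1 are the transcription factors best known to drive many of these genes, and their mRNAs are often short-lived through AU-rich elements bound by proteins such as ZFP36. Astrocytes and glioma cells are known sources of CXCL8, IL6, LIF and CCL2.

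CXCL8 lies on chromosome 4 at chr4:73740519-73743716 (GRCh38, plus strand), in a cluster with CXCL1, CXCL3 and CXCL2. RefSeq promoter windows (GRCh38.p14, 250 bases before to 50 after the start) were found for 8 of the 10 members. CCL2 and LIF were not among them. A κB motif (GGNNTTTCC, either strand) occurred in 5 of the 8, against 6.26% of 35116 windows of that length. An AP-1 motif (TGANTCA, which reads the same on both strands) occurred in 3, against 7.71%. The motifs share no bases in any of these windows. The stretches are shown because these are the letters by which the members' promoters can be compared. Motif matches are in capitals, and positions count back from the RefSeq start.
CXCL8, -145 to -73, chr4:73740424-73740496, plus strand: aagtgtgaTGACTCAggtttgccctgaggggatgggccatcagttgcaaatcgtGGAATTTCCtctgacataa
CXCL1, -89 to -60, chr4:73869304-73869333, plus strand: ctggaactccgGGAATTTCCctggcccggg
CXCL2, -88 to -59, chr4:74099254-74099283, minus strand: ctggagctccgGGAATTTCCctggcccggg
CXCL3, -89 to -60, chr4:74038749-74038778, minus strand: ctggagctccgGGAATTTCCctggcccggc
IL6, -83 to -54, chr7:22727117-22727146, plus strand: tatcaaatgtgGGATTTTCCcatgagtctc

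CXCL8 was the only one of these 8 members with both motifs, AP-1 at -137 and κB at -91. CXCL1, CXCL2 and CXCL3 carried the same 9 κB letters as CXCL8 (GGAATTTCC), and each held another κB match (GGGCTTTCC) at -53. The stretch shown for CXCL3 lies in an exon of a longer GENCODE transcript, and the others lie outside annotated exons of their genes. IL11 held an AP-1 match at -96. The 2 windows of IL1A overlap and held the same 2 AP-1 matches. The match TGAGTCA of IL1A lies in an annotated exon and, in the first window, past the start. IL1B held neither motif in its window. These matches describe letters and are not measured binding. Many members are already known as targets of these factors, and the stretches of CXCL1, CXCL2 and CXCL3 are nearly the same. Nothing is therefore read from the shares of windows with a match.

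**Figure D1:**
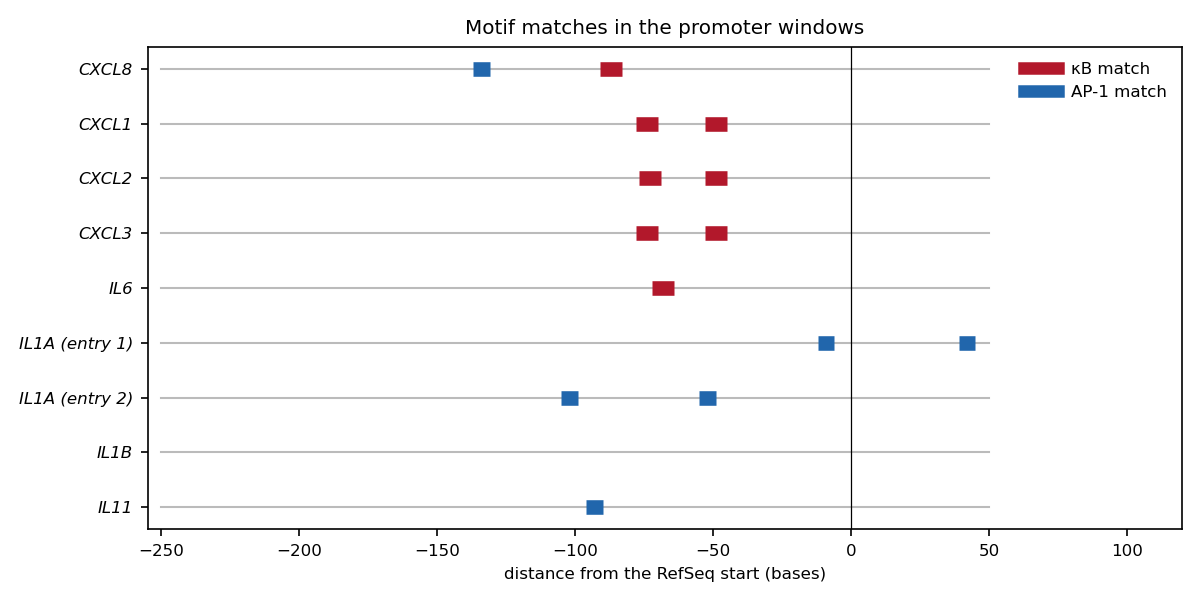
Positions of κB (red) and AP-1 (blue) motif matches in the RefSeq promoter windows of 8 members (IL1A has 2 entries), plotted as distance in bases from the RefSeq start; each grey line is 1 window. CXCL8 is the only member with both colours, and IL1B has none.

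CXCL8 was scarce in vehicle-treated cells and abundant at the high doses. It stood at 2.58, 3.15 and 3.27 CPM (counts scaled to a common library size by the TMM method) in the libraries of vehicle A and at 2.73, 2.25 and 3.29 CPM in vehicle B. The high dose of WESF gave 64.3, 71.8 and 67.5 CPM, and that of EESF 22.8, 20.0 and 24.1 CPM. Neither treated group overlapped any other group. The log2 fold change was 4.50 ± 0.082 (SE, 3 against 3 libraries), or 22.6-fold, with WESF and 3.02 ± 0.12, or 8.11-fold, with EESF. At the medium doses the levels were 5.66, 4.42 and 4.74 CPM (WESF) and 3.90, 4.19 and 4.13 CPM (EESF). At the low doses they were 2.61, 2.68 and 3.62 CPM and 2.68, 2.7 and 2.59 CPM. The low-dose and vehicle groups overlapped each other at the bottom of the order, and above them EESF medium, WESF medium, EESF high and WESF high followed without overlap.

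**Figure D2:**
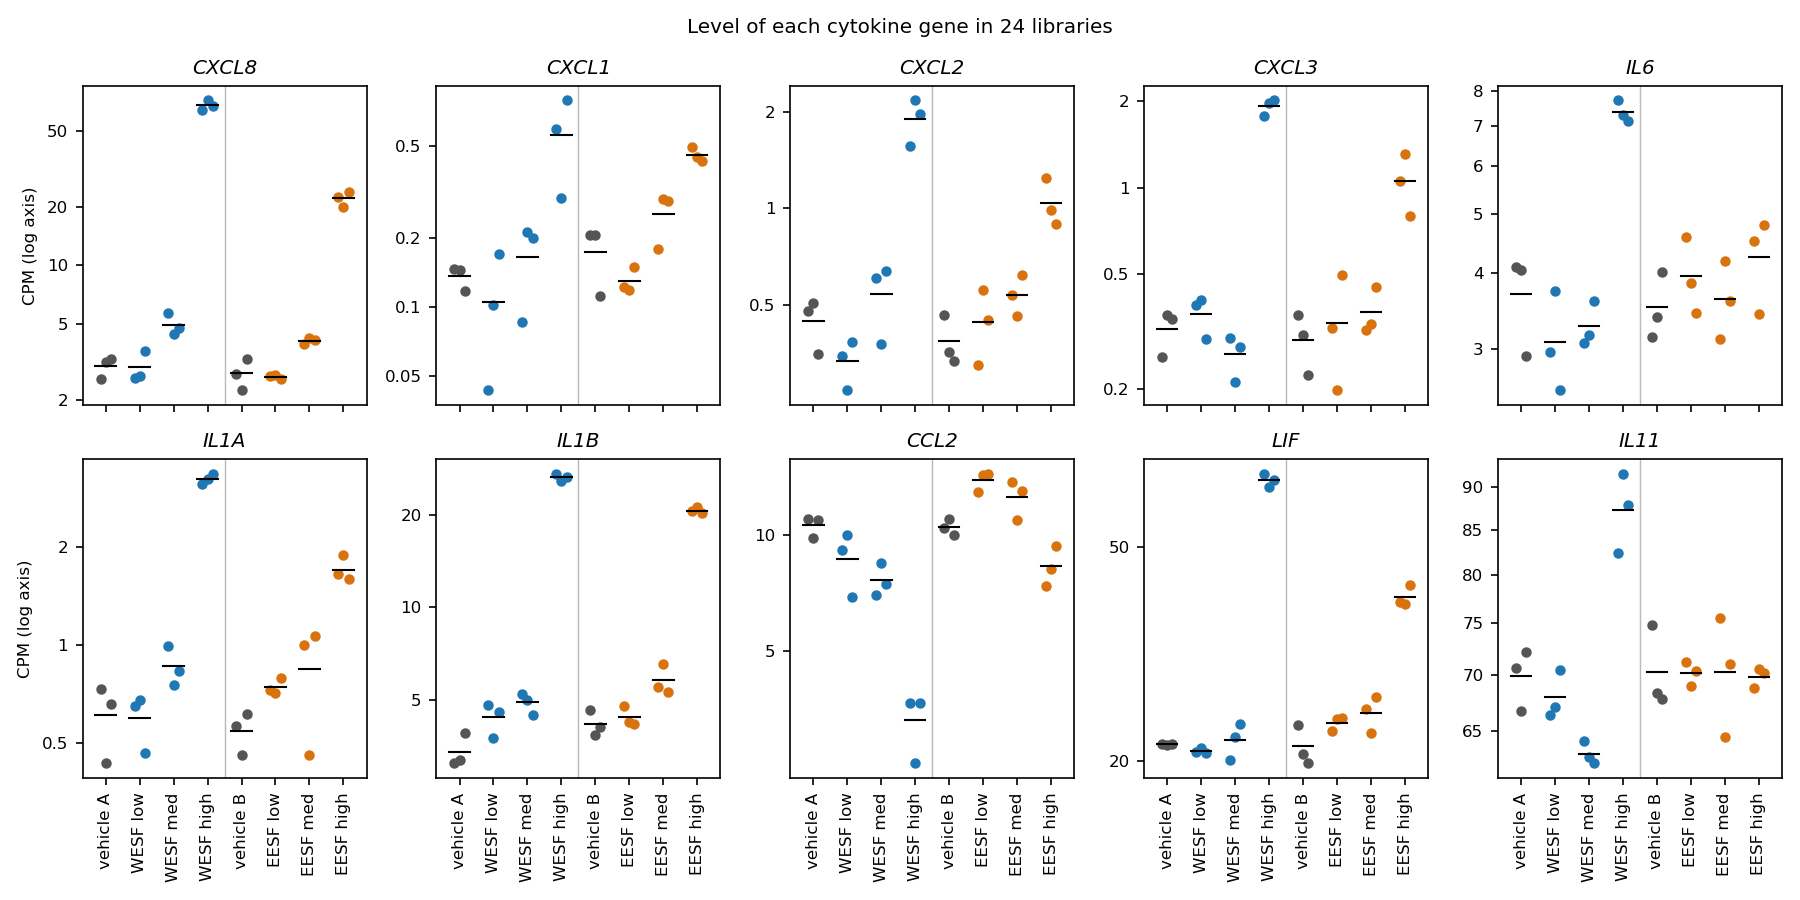
CPM of the 10 members (log axis, 1 panel a gene) in each of 24 libraries; points are libraries, black bars group means, grey is vehicle, blue WESF and orange EESF. The high-dose points of CXCL8 sit at 64.3 to 71.8 CPM (WESF) and 20.0 to 24.1 CPM (EESF), above all other groups, whereas CCL2 is lowest at the high dose of WESF.

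By length, CXCL8 moved from the fourth to the second place among the members with WESF. In vehicle A it had 1.16 CPM per kb of exon, below IL11 (26.1), LIF (5.54) and CCL2 (5.47 CPM per kb). At the high dose of WESF it had 26.2 CPM per kb and followed IL11 at 32.6, and at that of EESF it followed IL11 and LIF with 8.62 CPM per kb. In vehicle B it had 1.07 CPM per kb, in place 5 behind IL1B at 1.39.

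CXCL1, CXCL2 and CXCL3, close relatives of CXCL8 in the same cluster, were hardly detected without extract. CXCL2 had 0.479, 0.506 and 0.351 CPM in vehicle A and 1.57, 2.17 and 1.97 CPM at the high dose of WESF, a log2 fold change of 2.07 ± 0.25. With EESF it had 1.24, 0.991 and 0.897 CPM against 0.464, 0.358 and 0.335 CPM in vehicle B (1.41 ± 0.29). CXCL3 was 2.55 ± 0.26 higher on the log2 scale with WESF, at 1.78, 1.97 and 2.01 CPM against 0.258, 0.362 and 0.351 CPM. With EESF it was 1.81 ± 0.33 higher, at 1.06, 1.31 and 0.798 CPM against 0.361, 0.307 and 0.223 CPM. In both genes the high-dose libraries lay above every other library of their batch. CXCL1 had 1 to 18 counts in any library. Against a vehicle it had enough reads to be fitted at the high dose of EESF alone (1.35 ± 0.40). CXCL3 had enough in the high-dose comparisons only, so the high groups decided that it was fitted. The 3 transcripts are similar and RSEM can divide reads between them, although all of their deposited values are whole numbers. At the top dose their sum was 2.26 ± 0.18 higher on the log2 scale with WESF and 1.56 ± 0.22 higher with EESF.

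The interleukin-1 genes followed CXCL8 at lower amplitude. IL1B, which is made as a precursor and cut by caspase-1, had 3.10, 3.18 and 3.89 CPM in vehicle A and 27.3, 25.9 and 26.6 CPM at the high dose of WESF (log2 fold change 2.97 ± 0.087). The high dose of EESF gave 20.6, 21.3 and 20.3 CPM against 4.64, 3.84 and 4.08 CPM in vehicle B (2.31 ± 0.089). These high-dose values were tight within groups and far from both vehicles. IL1A, whose protein can act without that cleavage, had 0.737, 0.434 and 0.662 CPM in vehicle A and 3.13, 3.25 and 3.37 CPM at the high dose of WESF (2.41 ± 0.21). With EESF it had 1.66, 1.89 and 1.60 CPM against 0.567, 0.460 and 0.614 CPM (1.64 ± 0.23). No high-dose library of either gene overlapped another group.

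The gp130 cytokines differed among themselves. LIF, known for keeping mouse embryonic stem cells undifferentiated, had 21.5, 21.4 and 21.5 CPM in vehicle A and 68.6, 64.7 and 66.7 CPM at the high dose of WESF (1.63 ± 0.051 on the log2 scale). With EESF it had 39.5, 39.3 and 42.5 CPM against 23.4, 20.6 and 19.8 CPM (0.92 ± 0.071). IL6 had 4.09, 4.05 and 2.92 CPM in vehicle A and 7.71, 7.29 and 7.14 CPM at the high dose of WESF (1.00 ± 0.13). With EESF it had 4.52, 3.42 and 4.81 CPM against 3.14, 3.38 and 4.02 CPM, and these groups overlapped (0.28 ± 0.16). IL11, the most abundant member, ranged from 66.7 to 72.2 CPM in vehicle A and from 82.4 to 91.6 CPM at the high dose of WESF (0.32 ± 0.051). With EESF it ranged from 68.8 to 70.6 CPM, inside the 67.8 to 74.8 CPM of vehicle B (-0.01 ± 0.055). The high-dose libraries of LIF lay above the vehicle with both extracts, and those of IL6 and IL11 with WESF.

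CCL2 went the other way. It had 11.0, 9.80 and 10.9 CPM in vehicle A and 3.68, 2.56 and 3.68 CPM at the high dose of WESF, a log2 fold change of -1.67 ± 0.12 (3.17-fold lower). With EESF it had 7.35, 8.15 and 9.34 CPM against 10.4, 11.0 and 10.0 CPM in vehicle B (-0.34 ± 0.10). Both high-dose groups lay below their vehicles without overlap, and WESF high was the lowest of all 8 groups. In batch B the low and medium doses gave the highest group means of the series, from 12.9, 14.3 and 14.4 CPM and 13.7, 10.9 and 13.0 CPM.

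At the high dose of WESF 8 of the 9 members fitted differed by more than 1.5-fold with no overlap between the groups (7 higher, 1 lower), and this rule held for 24.1% of all 13129 genes tested. With EESF it held for 7 of 10, all higher, and for 17.5% of 13092 genes. The median log2 fold change was 2.07 and 1.38 over the members fitted, against 0.00082 and 0.007 over all genes tested. CXCL3 with both extracts and CXCL1 with EESF are among the members fitted, and entered only through their high-dose libraries. Because the members were chosen by these comparisons, nothing is read from these shares or medians.

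**Figure D3:**
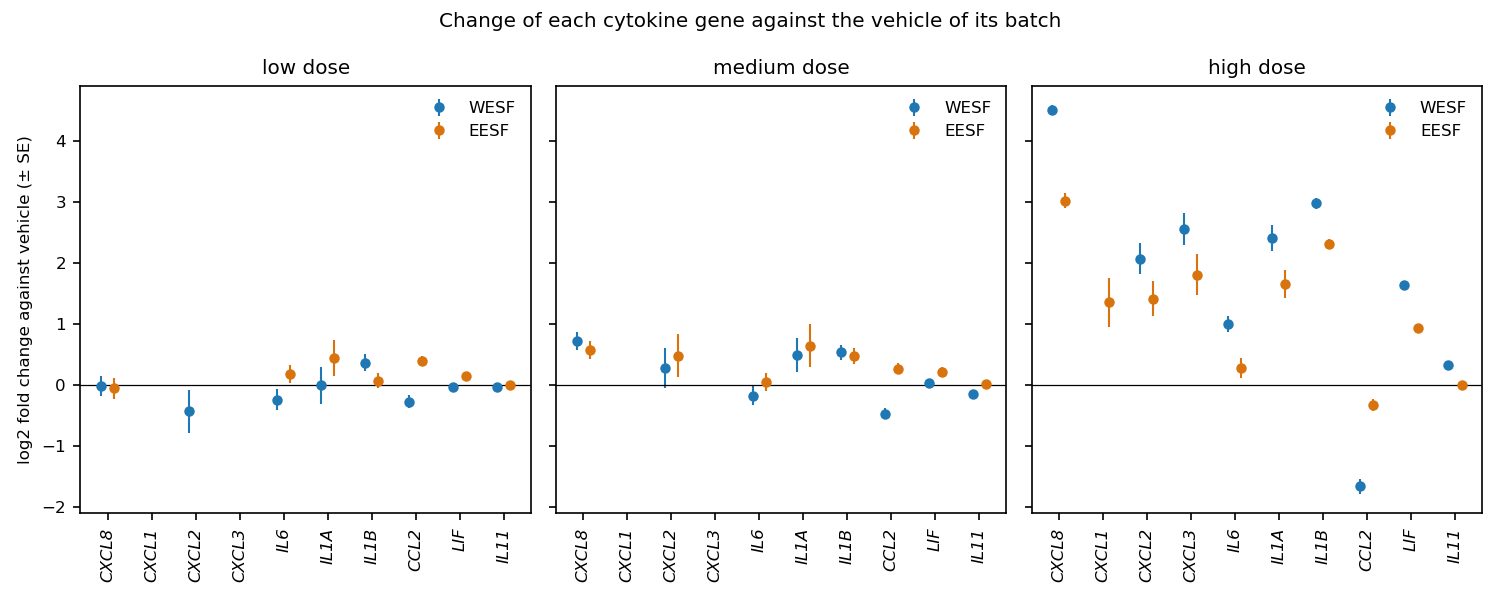
Log2 fold change (± SE) of each member against the vehicle of its batch at the low, medium and high dose of WESF (blue) and EESF (orange), 3 against 3 libraries; members without a point did not pass the filter on low counts. CXCL8 reaches 4.50 and 3.02 at the high dose, where CCL2 is at -1.67 and -0.34; with EESF CCL2 is above 0 at the low and medium doses.

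The medium and low doses were not used to choose the members and could be tested, although they share the vehicle libraries with the high-dose comparisons. DEGs are genes with an adjusted p under 0.05 (edgeR's quasi-likelihood test, Benjamini-Hochberg over all genes tested) and a fold change beyond 1.5. At the medium dose of WESF CXCL8 was a DEG, with a log2 fold change of 0.72 ± 0.14 (edgeR adjusted p = 0.0137), and no library overlapped vehicle A. It was the only DEG among the 8 members tested, and 0.275% of 13112 genes were DEGs. Below the fold threshold, IL1B rose by 0.53 ± 0.13 (edgeR adjusted p = 0.0395) and CCL2 fell by 0.47 ± 0.092 (adjusted p = 0.0132), so 3 of 8 members passed at any fold against 4.1% of genes. IL11 was at -0.15 ± 0.045 (adjusted p = 0.0749), and CXCL2, IL6, IL1A and LIF had adjusted p-values between 0.342 and 0.826. IL1B missed the threshold with DESeq2 (adjusted p = 0.0695), with all genes of the table (edgeR adjusted p = 0.0509) and with counts thinned to the shallowest library (0.0808). Without replicate 2 of vehicle A the adjusted p of CXCL8 was 0.0618 and that of IL1B 0.164. Without replicate 3 of WESF medium it was 0.0642 for CXCL8, 0.0961 for IL1B and 0.0849 for CCL2. That of IL1B was also 0.0963 without replicate 1 and 0.144 without replicate 2 of WESF medium.

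At the medium dose of EESF CXCL8 and IL1B rose by smaller amounts than the fold threshold. CXCL8 rose by 0.57 ± 0.15 (edgeR adjusted p = 0.0193) and IL1B by 0.47 ± 0.13 (adjusted p = 0.0224), so 2 of 8 members passed at any fold against 15.4% of 12978 genes. CCL2 was 0.27 ± 0.094 higher (edgeR adjusted p = 0.0669) and LIF 0.21 ± 0.076 higher (adjusted p = 0.0699). In edgeR 0 members were DEGs, against 0.755% of genes, while 4 of 8 had an unadjusted p under 0.05, against 30.4% of genes, and DESeq2 also called 0. DESeq2's Wald test left CXCL8 at an adjusted p of 0.0562 and IL1B at 0.0629. Without replicate 2 of vehicle B the edgeR adjusted p was 0.112 for CXCL8 and 0.108 for IL1B, and without replicate 2 of EESF medium 0.0602 and 0.096. It was 0.069 for CXCL8 without replicate 3 of EESF medium and 0.0683 for IL1B without replicate 3 of vehicle B.

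At the low doses CXCL8 did not differ detectably from the vehicle, at -0.02 ± 0.16 with WESF (edgeR adjusted p = 0.999) and -0.06 ± 0.17 with EESF (adjusted p = 0.871). For WESF edgeR called 0 of 8 members, as it did 0% of 13131 genes, while IL1B and CCL2 had unadjusted p-values under 0.05, as did 3.58% of genes, and DESeq2 called 0 members. With EESF CCL2 rose by 0.40 ± 0.077 (edgeR adjusted p = 0.00903). It was the only one of 7 members to pass at any fold, against 9.35% of 12892 genes, and its adjusted p was 0.0515 without replicate 2 of EESF low. In edgeR 0 members were DEGs there, against 0.271% of genes, with 1 of 7 at an unadjusted p under 0.05, against 26.3% of genes, and DESeq2 called 0.

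The step from the low to the medium dose uses no library of the comparisons that chose the members. CXCL8 rose over it by 0.74 ± 0.15 with WESF (edgeR adjusted p = 0.044), without overlap between the groups. It was the only DEG of 7 members tested, against 0.0614% of 13038 genes, and 0.936% of genes passed at any fold. DESeq2 called 0 members and gave no adjusted p for CXCL8, and edgeR's was 0.0682 with all genes of the table and 0.0609 with counts thinned to the shallowest library. Its adjusted p was 0.133 without replicate 1, 0.0798 without replicate 2 and 0.156 without replicate 3 of WESF medium, and 0.147 without replicate 1 and 0.142 without replicate 2 of WESF low. With EESF CXCL8 was 0.61 ± 0.13 higher (edgeR adjusted p = 0.0791), again without overlap. EdgeR called 0 of 8 members there, with 2 at an unadjusted p under 0.05 (CXCL8 and IL1B), against 8.42% of genes, and DESeq2 called 0. The background was low in that comparison, with 0.0153% of 13093 genes DEGs and 0.137% past the threshold at any fold.

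Between extracts, the high-dose fold change with EESF minus that with WESF was -1.48 ± 0.19 for CXCL8 and 1.33 ± 0.17 for CCL2 on the log2 scale. For the other 8 members it lay between -0.76 (IL1A) and -0.33 (IL11), so CCL2 alone was above 0. These values are descriptions, as the members were chosen by them. At the medium dose CCL2 differed by 0.73 ± 0.14 (edgeR interaction test, adjusted p = 0.0428), being 0.47 lower with WESF and 0.27 higher with EESF on the log2 scale. It was the only one of 8 members past the threshold, against 0.0301% of 13276 genes as DEGs and 0.203% at any fold. With a replicate block edgeR's adjusted p for CCL2 was 0.144, and correlations did not settle whether replicate numbers pair the libraries. DESeq2 called 0 members and gave no adjusted p for CCL2, and the interaction missed the threshold without any of 9 of the 12 libraries. Those were replicates 1 and 2 of vehicle A (adjusted p = 0.077 and 0.0898), replicates 1, 2 and 3 of WESF medium (0.0959, 0.0537 and 0.0891), replicates 2 and 3 of vehicle B (0.109 and 0.0936) and replicates 1 and 3 of EESF medium (0.0597 and 0.129). CXCL8 had -0.15 ± 0.21 at the medium dose (edgeR adjusted p = 0.806) and -0.02 ± 0.24 at the low dose (adjusted p = 0.983), and a difference of the size of these errors could not be detected. At the low dose edgeR called 0 of 8 members and 0% of 13221 genes, with CCL2 at 0.69 ± 0.15 (adjusted p = 0.173). CCL2 and LIF had unadjusted p-values under 0.05, as did 10.5% of genes, and DESeq2 called 0. For the medium minus the low dose 0 of 8 members and 0% of 13284 genes were DEGs, with 0 members at an unadjusted p under 0.05, against 4.1% of genes, and 0 by DESeq2.

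The rest of the pathway was described by 11 lists of 147 genes without the members. At the high dose of WESF 31 of 100 tested list genes were DEGs (19 up, 12 down; 31.0%, against 24.1% of all genes tested). At that of EESF 24 of 98 were (12 up, 12 down; 24.5%, against 17.4%). These counts hold ACKR4 and NLRP3 with WESF and CSF3 with EESF, all higher, which had enough reads to test at no lower dose of that extract, so the high groups decided that they were tested. Over genes also tested at the low or the medium dose, a restriction chosen after seeing the data, 29 of 98 list genes were DEGs with WESF (29.6%, against 23.6% of all such genes) and 23 of 96 with EESF (24.0%, against 16.9%). At the medium dose 2 of 98 were DEGs with WESF (2.04%, against 0.275% of all genes tested) and 5 of 97 with EESF (5.15%, against 0.755%). Leaving out 1 library gave 0 to 2 and 1 to 4, and DESeq2 gave 1 with either extract. At the low dose 0 of 98 were DEGs with WESF, against 0% of all genes, and 1 of 96 with EESF (1.04%, against 0.271%). At the low dose of WESF 2 of the 98 list genes had an unadjusted p under 0.05 in edgeR, against 3.58% of all genes, and DESeq2 called 0. The low-dose EESF DEG was SOCS1, a feedback inhibitor of JAK kinases (0.81 ± 0.15, edgeR adjusted p = 0.00693). DESeq2 called 0 list genes there, and SOCS1 was named after its value was seen. In edgeR SOCS1 was also a DEG at the medium dose of EESF (0.73 ± 0.16, edgeR adjusted p = 0.00764). It was at 0.0029 ± 0.17 at the high dose of EESF and -0.27 ± 0.24 at that of WESF (edgeR adjusted p = 0.989 and 0.326).

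Among ligands, CXCL5, another ELR chemokine of the cluster, rose by 2.54 ± 0.22 with WESF and 2.45 ± 0.29 with EESF (edgeR adjusted p = 2.69e-08 and 1.67e-05). It had 0.362 to 0.584 CPM in vehicle A and 2.71 to 3.07 CPM with WESF, and 0.167 to 0.361 CPM in vehicle B and 1.44 to 1.70 CPM with EESF. With EESF it had too few reads to test at the low dose, so the high-dose libraries helped to decide that it was tested there. It was the only one of the 3 remaining ELR genes with enough reads to test. CXCL12, the ligand of CXCR4, fell from 13.9 to 14.8 CPM in vehicle A to 3.99 to 4.29 CPM with WESF. The log2 fold change was -1.79 ± 0.091 with WESF and -1.31 ± 0.088 with EESF (edgeR adjusted p = 2.75e-11 and 1.83e-07). It was the only DEG of 5 other chemokine ligands tested, whose median was -0.30 with WESF and -0.00343 with EESF. DEGs made up 24.1% of all genes tested with WESF and 17.4% with EESF. Of 8 other IL-1 family ligands only the alarmin IL33 had enough reads to test at the high doses, at 0.12 ± 0.10 with WESF and 0.14 ± 0.10 with EESF (edgeR adjusted p = 0.289 and 0.267). Of 4 other IL-6 family ligands tested, WESF gave no DEG (median -0.15) and EESF gave 1, lower (median 0.22). At any fold 2 of these 4 passed edgeR's test with WESF, against 68.9% of all genes.

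Chemokine receptors were mostly too scarce to test, at 5 of 18 genes. With each extract 1 was a DEG upward and 3 downward, with a median of -1.46 for WESF and -1.15 for EESF. Of all genes tested 24.1% were DEGs with WESF and 17.4% with EESF. The upward DEG with WESF was ACKR4, a scavenger of CCL19 and CCL21, which was tested only through its high-dose libraries. Without it 0 of 4 were DEGs upward and 3 downward (median -1.91). With EESF ACKR4 was tested in the same way and was no DEG, and the median without it was -1.45. ACKR3, a scavenger of CXCL12, fell by 2.37 ± 0.37 with WESF and 1.75 ± 0.26 with EESF (edgeR adjusted p = 2.52e-05 and 0.000111). ACKR1, which binds many inflammatory chemokines, fell by 1.28 ± 0.30 with WESF and 1.15 ± 0.22 with EESF (edgeR adjusted p = 0.00103 and 0.000717). CXCR5, the receptor of CXCL13, was 2.13 ± 0.76 higher with EESF (edgeR adjusted p = 0.0285), but its libraries overlapped, at 0 to 6.31 CPM in vehicle B and 4.1 to 12.8 CPM with EESF. With WESF it was at -1.46 ± 0.78 (edgeR adjusted p = 0.106).

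Of the IL-1 receptor, adaptor and processing genes 4 of 19 were DEGs with WESF (2 up, 2 down, median -0.0133), against 24.1% of all genes. With EESF 2 of 18 were (1 up, 1 down, median -0.10), against 17.4%. Of the 2 up with WESF, NLRP3, an inflammasome sensor, was tested only through its high-dose libraries. IL1RAP, the shared co-receptor, rose by 0.62 ± 0.052 with WESF and, below the fold threshold, 0.28 ± 0.056 with EESF (edgeR adjusted p = 1.64e-08 and 0.00104). IL18R1, a receptor of interleukin-18, fell by 0.75 ± 0.24 with WESF and 0.71 ± 0.19 with EESF (adjusted p = 0.0104 and 0.00616). SIGIRR, a negative regulator of the family, rose by 0.77 ± 0.19 with EESF (adjusted p = 0.00378) and was at 0.30 ± 0.19 with WESF (adjusted p = 0.157).

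IL6ST fell and CISH rose with both extracts. IL6ST, the shared receptor subunit gp130, fell by 0.84 ± 0.060 with WESF and 0.93 ± 0.080 with EESF (edgeR adjusted p = 2.12e-09 and 1.38e-06). CISH, an inhibitor of cytokine signalling, rose by 1.53 ± 0.18 and 1.18 ± 0.18 (adjusted p = 1.13e-06 and 0.000158). IL6R rose by 0.77 ± 0.17 with WESF and, below the fold threshold, 0.51 ± 0.15 with EESF (edgeR adjusted p = 0.000807 and 0.0111). SOCS2, a relative of CISH, rose by 0.68 ± 0.14 and 0.84 ± 0.14 (adjusted p = 0.000374 and 0.000306). In all, 4 of 15 genes were DEGs upward and 1 downward with WESF (median 0.18), against 24.1% of all genes tested. With EESF 2 were DEGs upward and 2 downward (median 0.00287), against 17.4%.

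In the list of TNF family, colony-stimulating factor and prostaglandin enzyme genes 4 of 8 were DEGs upward and 2 downward with WESF (median 0.56). With EESF 2 of 7 were DEGs upward and 2 downward (median 0.42). The share of DEGs among all genes tested was 24.1% with WESF and 17.4% with EESF. CSF3, the granulocyte growth factor G-CSF and 1 of the 2 upward DEGs with EESF, was tested there only through its high-dose libraries. Without it 1 of 6 was a DEG upward and 2 downward (median 0.0832). PTGS2, the inducible cyclooxygenase, rose from 81.3 to 88.3 CPM in vehicle A to 345 to 365 CPM with WESF. That is a log2 fold change of 2.08 ± 0.048, and EESF gave 1.08 ± 0.057 (edgeR adjusted p = 3.14e-15 and 4.21e-08). TNFSF15, a TNF family ligand, fell by 2.41 ± 0.19 with WESF and 2.11 ± 0.19 with EESF (adjusted p = 5.19e-09 and 1.77e-06). TNFSF10, the death ligand TRAIL, fell by 1.90 ± 0.32 with WESF and 0.92 ± 0.22 with EESF (adjusted p = 5.77e-05 and 0.00298).

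Of 11 NF-κB subunits and kinases 1 was a DEG upward and 2 downward with each extract, with medians of 0.000297 and -0.00789. The DEG share of all genes tested was 24.1% with WESF and 17.4% with EESF. NFKB2 rose by 0.91 ± 0.059 with WESF and 0.73 ± 0.063 with EESF (edgeR adjusted p = 6.14e-10 and 1.39e-06). IKBKE, a kinase of the interferon and NF-κB pathways, fell by 1.73 ± 0.12 and 1.17 ± 0.11 (adjusted p = 1.56e-09 and 3.63e-06). MAP3K14, the NF-κB-inducing kinase, fell by 0.86 ± 0.054 with WESF and, below the fold threshold, 0.55 ± 0.059 with EESF (edgeR adjusted p = 4.08e-10 and 7.35e-06). REL, an NF-κB subunit, fell by 0.89 ± 0.19 with EESF (adjusted p = 0.00167) and was at -0.12 ± 0.094 with WESF (adjusted p = 0.258).

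Among 17 inhibitors and feedback targets of NF-κB 4 were DEGs upward and 1 downward with WESF (median 0.19), against 24.1% of all genes. With EESF 3 were DEGs upward and 0 downward (median 0.24), against 17.4%. IER3, an early response gene, rose by 1.5 ± 0.13 and 1.54 ± 0.13 (edgeR adjusted p = 3.06e-08 and 1.02e-06). With WESF NFKBIZ, a nuclear IκB protein, rose by 0.98 ± 0.095 and BIRC2, a ubiquitin ligase, by 0.80 ± 0.049 (adjusted p = 9.87e-08 and 2.75e-10). With EESF they were at 0.17 ± 0.11 and 0.38 ± 0.057 (edgeR adjusted p = 0.222 and 0.000116). With EESF NFKBID, another nuclear IκB, rose by 0.88 ± 0.12 and TRAF1, a signalling adaptor, by 0.64 ± 0.091 (adjusted p = 6.27e-05 and 7.59e-05), and with WESF they were at 0.45 ± 0.14 and 0.19 ± 0.092 (edgeR adjusted p = 0.00721 and 0.071). Among 14 factors that act on AU-rich mRNA 2 were DEGs with WESF and 1 with EESF, all higher, and the medians were -0.0853 and -0.0819. ZFP36L1 rose by 0.99 ± 0.057 and 0.81 ± 0.053 (edgeR adjusted p = 1.24e-10 and 1.55e-07), and ZFP36 by 0.84 ± 0.081 with WESF and, below the fold threshold, 0.57 ± 0.061 with EESF (adjusted p = 8.61e-08 and 8.29e-06). Both promote decay of such mRNA. The median over all genes tested was 0.00082 with WESF and 0.007 with EESF.

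**Figure D4:**
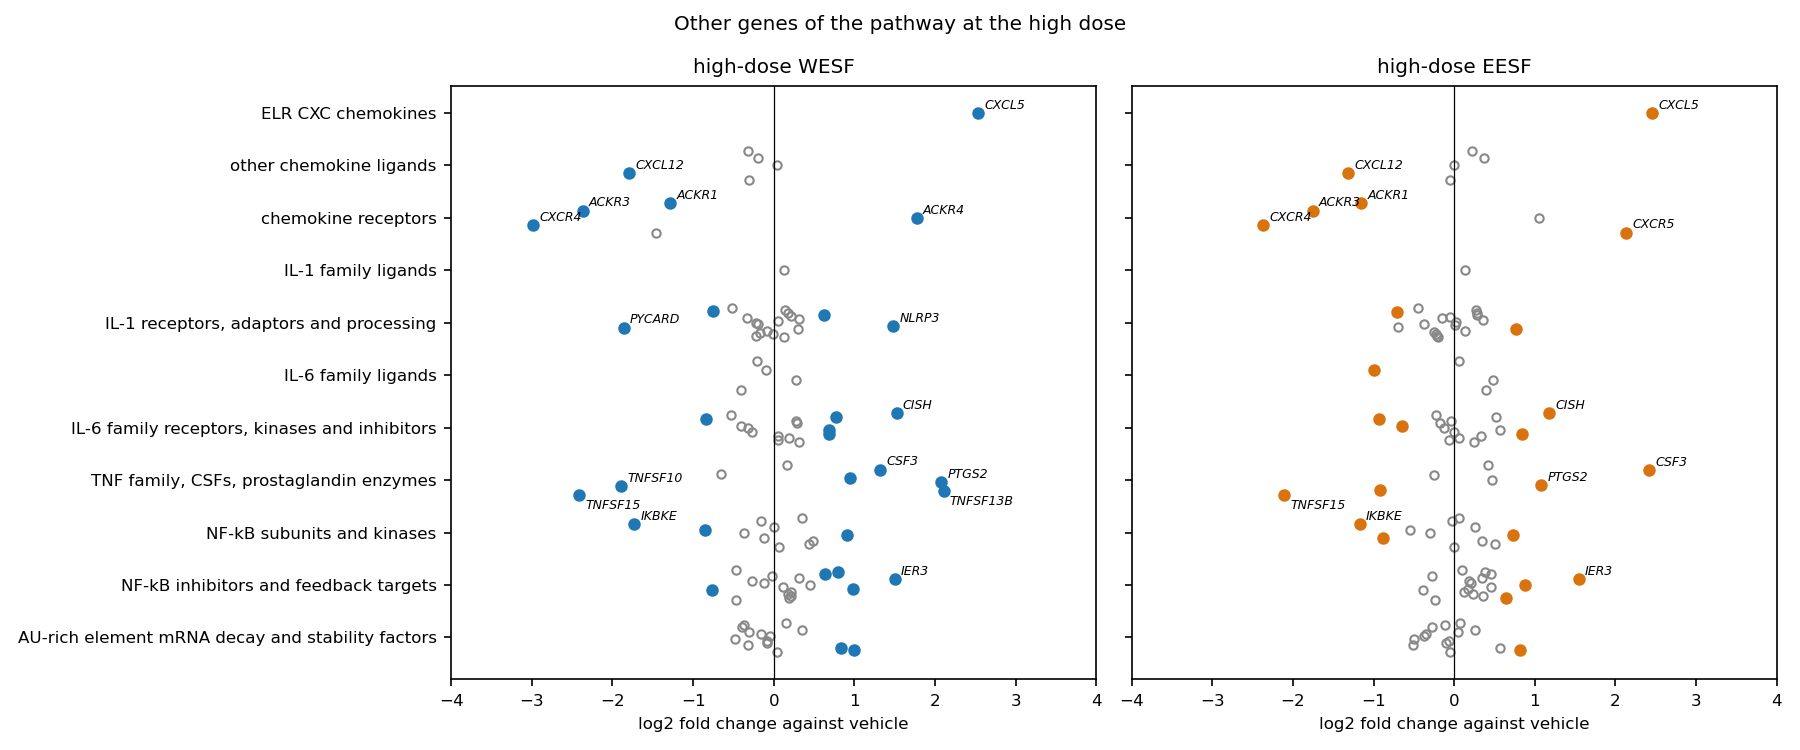
Log2 fold change at the high dose of WESF (left) and EESF (right) of every tested gene of the 11 lists, members aside; filled points are DEGs, open points are not, and DEGs beyond 1 are named. CXCL5 lies at 2.54 and 2.45 and CXCL12 at -1.79 and -1.31.

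Around CXCL8, within 1 Mb of its start, the table held 19 protein-coding genes, of which 10 were tested in the high-dose comparison of WESF and 11 in that of EESF. Of the 7 that are not members, 4 were DEGs with each extract, all higher, against 24.1% and 17.4% of all genes tested. They were CXCL5, for which the same limit holds with EESF, COX18 and EPGN and EREG, ligands of the EGF receptor family. EPGN rose by 1.67 ± 0.14 and 1.34 ± 0.14 (edgeR adjusted p = 1.42e-08 and 7.82e-06), and EREG by 1.46 ± 0.21 and 0.91 ± 0.27 (adjusted p = 9.95e-06 and 0.0124). COX18, an assembly factor of the respiratory chain, rose by 0.73 ± 0.068 and 0.64 ± 0.079 (adjusted p = 5.39e-08 and 2.45e-05). ANKRD17, on the same side of CXCL8, was at 0.11 ± 0.058 with WESF (edgeR adjusted p = 0.0984) and at -0.30 ± 0.077 with EESF (adjusted p = 0.00481). MTHFD2L, a mitochondrial folate enzyme, was at 0.51 ± 0.12 and 0.12 ± 0.10 (edgeR adjusted p = 0.00136 and 0.349), and AFP, the fetal serum protein alpha-fetoprotein, at -0.62 ± 0.32 and -0.07 ± 0.32 (adjusted p = 0.0978 and 0.855).

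The genes outside the set whose 6 log2 fold changes lay nearest to those of CXCL8 were THBD, KRTAP2-3, ANGPTL4, ARRDC4 and TXNIP. The root mean square difference was 0.434 for THBD (thrombomodulin, an endothelial anticoagulant), 0.478 for KRTAP2-3 (a hair keratin-associated protein with near-identical relatives, so its counts are uncertain) and 0.776 for ANGPTL4 (an inhibitor of lipoprotein lipase). It was 0.791 for ARRDC4 and 0.82 for TXNIP, 2 arrestin-domain proteins induced by glucose. Their levels over the 8 group means correlated with CXCL8 at Pearson's r of 0.935 to 0.991, a description over groups that share vehicles. Among the 6 other members tested in every one of these comparisons IL1B was nearest, at 0.711. THBD went from 9.43 CPM in vehicle A to 112 CPM at the high dose of WESF and from 8.92 to 62.9 CPM with EESF. Each r, of these genes and of the members, rests mostly on the high-dose groups, which chose CXCL8. CXCL8 averaged 22.3 CPM (EESF) and 67.9 CPM (WESF) there, and 2.65 to 4.94 CPM elsewhere. CXCL1, CXCL2 and CXCL3 averaged 0.105 to 0.54 CPM elsewhere, against 0.5 CPM added before the logs. Nothing is read from these r values. Among the other 9 members r with CXCL8 was 0.989 for IL1A and CXCL2, 0.982 for LIF, 0.976 for CXCL3, 0.974 for IL1B, 0.952 for CXCL1, 0.881 for IL6, 0.742 for IL11 and -0.856 for CCL2.

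**Figure D5:**
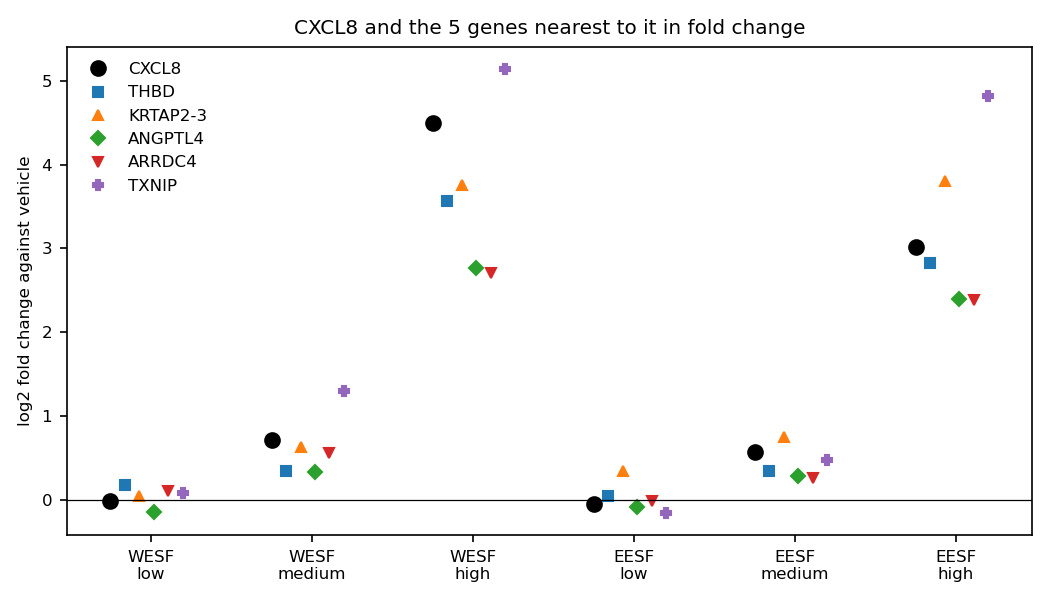
Log2 fold change against the vehicle of its batch in each of the 6 comparisons for CXCL8 (black) and the 5 genes outside the 10 members that were nearest to it by root mean square difference. CXCL8 reaches 4.50 at the high dose of WESF, where THBD, the nearest, reaches 3.57.

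The labelled cell type was checked against its markers. Of 11 astrocyte markers 5 were under 1 CPM in all 24 libraries, among them GFAP, S100B, AQP4 and ALDH1L1, whereas VIM (4900 CPM on average) and CD44 (2600 CPM) were abundant. The summed level of the astrocyte list was 7983 ± 75.7 CPM in vehicle A and 6764 ± 135 CPM at the high dose of WESF (SD, n = 3), and 8150 ± 97.2 CPM in vehicle B and 7593 ± 125 CPM at the high dose of EESF. Of its 6 markers tested 4 were DEGs with WESF and 2 with EESF, all lower, and 5 were lower at an edgeR adjusted p under 0.05 at any fold with each, a threshold that 68.9% of all genes passed with WESF and 58% with EESF in either direction. SLC1A3, a glutamate transporter, fell by 1.62 with WESF and 1.39 with EESF (edgeR adjusted p = 4.06e-12 and 3.07e-08), and SOX9, a glial transcription factor, by 0.687 and 0.821 (adjusted p = 3.1e-09 and 1.38e-06). NES, an intermediate filament protein, fell by 1.21 and 0.451 (edgeR adjusted p = 1.79e-06 and 0.00612). CD44, a hyaluronan receptor, fell by 0.721 and 0.48 (edgeR adjusted p = 4.42e-10 and 6.11e-06). VIM and CD44 made up most of the summed astrocyte level. CD44 averaged 2840 CPM in vehicle A and 1720 CPM at the high dose of WESF, most of the fall in that sum. In batch B it averaged 2900 CPM in the vehicle and 2080 CPM at the high dose of EESF. VIM, the most abundant marker, was at -0.00823 and 0.101 (edgeR adjusted p = 0.875 and 0.0857). Leukocytes can also make CXCL8 and IL1B, and 13 of 16 leukocyte and microglia markers were under 1 CPM in every library, with TYROBP at 0. The summed level of that list was 191, 201 and 195 CPM in vehicle A and 240, 209 and 230 CPM at the high dose of WESF. It was 203, 226 and 214 CPM in vehicle B and 275, 269 and 278 CPM at the high dose of EESF. CD68 (210 CPM on average), a lysosomal protein that many cell types express, made up most of it. Of the 3 leukocyte markers tested 2 were DEGs with each extract, both lower (PTPRC and CSF1R), and CD68 rose by less than the fold threshold, at 0.295 with WESF and 0.427 with EESF (edgeR adjusted p = 7.61e-05 and 3.01e-05). PTPRC, the leukocyte antigen CD45, fell by 2.26 with WESF and 2.38 with EESF (edgeR adjusted p = 4.79e-11 and 7.81e-08). Of 8 endothelial markers 5 were under 1 CPM throughout, KDR (36.1 CPM on average) was the most abundant, and the summed list stood at 37.3 ± 2.99 CPM in vehicle A and 39.9 ± 1.37 CPM at the high dose of WESF (SD, n = 3). It stood at 36.2 ± 1.82 CPM in vehicle B and 43.5 ± 2.26 CPM at the high dose of EESF. Of its 3 markers tested PECAM1 was a DEG with WESF, at -0.759 (edgeR adjusted p = 0.0418), and KDR rose by less than the fold threshold with EESF, at 0.284 (adjusted p = 0.00392). Mitochondrial genes took 10.4% of the counts in vehicle A and 8.65% at the high dose of WESF, and 11.8% in vehicle B and 11.5% at the high dose of EESF. At the medium doses the share was 10.1, 8.73 and 8.96% with WESF and 11.5, 13.3 and 14.1% with EESF, and at the low doses it averaged 9.99% and 11.9%. The part of these measures in the cytokine values was not tested.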

How the data were processed

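RNA was sequenced from 24 libraries of SW1783 cells, 3 in each of 8 groups. Per the methods and processing notes, reads were checked with FastQC 0.11.9, trimmed with Trim Galore 0.6.6, aligned to GRCh38 with STAR 2.7.9a and counted with RSEM 1.3.3. The authors deposited expected counts per gene, without normalization. RSEM's strand setting is not given in the sources used here, and 10.9% of deposited values have decimals.

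After rounding, protein-coding genes (GENCODE release 44) that passed filterByExpr were fitted with edgeR 4.0.16 (TMM, quasi-likelihood test, 2-sided) in R 4.3.3, on the libraries of each comparison. Benjamini-Hochberg adjustment covered all genes tested, and p-values measure the spread between these libraries. DEGs were called at an adjusted p below 0.05 with more than a 1.5-fold change (0.585 on the log2 scale). The code was tested on simulated data. The study's methods use DESeq2, which was run as an alternative (version 1.42.0). Other alternatives were DESeq2's size factors, no filter, all genes, thinned counts, fits of all 4 groups of a batch, a replicate block, summed CXCL1 to CXCL3 and leaving out each library.

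Members, lists and rules were chosen with earlier results of these data known. Named genes were the members, the 3 largest changes among DEGs of each list with a mean of at least 1 CPM at each high dose, and the 5 genes nearest to CXCL8. Beyond that rule, genes within 1 Mb of CXCL8, cell type markers, IL33, SOCS1, ACKR4, NLRP3 and CSF3 were named, the last 5 after their values were seen. The Pearson correlations used log2(CPM + 0.5). SOD2 could not be matched and was left out, as 146 of 147 list genes were annotated. Promoters are RefSeq's (GRCh38.p14).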

Additional observations from a re-analysis of the deposited data

Results flagged for a closer look

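CCL2 differed between the extracts in the same contrast. At the medium dose the tested difference, EESF minus WESF, was 0.732 on the log2 scale (edgeR adjusted p = 0.0428), with all 3 WESF libraries below the mean of vehicle A and all 3 EESF libraries above that of vehicle B. That test missed the threshold without any of 9 of the 12 libraries (edgeR adjusted p up to 0.129), and DESeq2 called 0 members and gave no adjusted p for CCL2. With a replicate block edgeR's adjusted p was 0.144. The difference of the mean log2 ratios was 0.729. At the low dose the libraries fell on opposite sides in the same way, with a difference of 0.712, and edgeR's interaction test there gave an adjusted p of 0.173. LIF at the low dose (0.188) and CXCL3 at the medium dose (0.611) also had every WESF library below and every EESF library above the vehicle mean. For LIF edgeR's interaction had an adjusted p of 0.439. For CXCL3 the difference was not tested, as it did not pass the filter on low counts. CXCL3 had 5 to 7 counts a library at the medium dose of WESF and 8 to 11 at that of EESF. All cases of libraries on opposite sides were picked by that rule among the members. The share of all genes that meet it is not given, so nothing is read from them.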

How the results depend on the processing

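Few reads limit CXCL1, CXCL2, CXCL3 and IL1A most. Leaving out 1 library kept the members past 1.5-fold without overlap at the high doses at 8 to 9 (WESF) and 6 to 7 (EESF), and the list DEGs there at 29 to 32 and 23 to 26. The member tests at lower doses were less stable. Leaving out a library lost 28 calls at any fold and gained 4, and the other alternatives lost 9 and gained 4. Among tested member values the sign turned in 34 on leaving out a library and in 11 under other alternatives. They belong to 14 results, none of them past the threshold, of which the largest was 0.143 on the log2 scale.

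Leaving out 1 library gave 0 to 2 member DEGs at the medium dose of WESF, 0 to 1 at that of EESF, 0 to 1 from the low to the medium dose of WESF and 0 to 1 for the medium-dose interaction. Among list genes it gave 0 to 2 at the medium and 0 to 1 at the low dose of WESF, and 1 to 4 and 1 to 3 with EESF. With DESeq2 there was 1 list DEG at the medium dose of either extract, and with EESF the low dose gave 0. That test gave 0 member DEGs from the low to the medium dose of WESF and 0 for the medium-dose interaction. All genes of the table or thinned counts gave 0 from the low to the medium dose of WESF, and thinned counts gave 1 at the medium dose of EESF. Without a filter there was 1 from the low to the medium dose of EESF and 1 for the low-dose interaction. The cause of these changes was not tested.

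Signs that turned on leaving out a library had these log2 ranges. IL11 at the high dose of EESF, a description with no test and not among the 14, had -0.0389 to 0.028. LIF at the medium dose of WESF had -0.0221 to 0.0883. At the medium dose of EESF IL11 had -0.0507 to 0.0635 and IL6 -0.0653 to 0.155. At the low dose of WESF IL1A had -0.208 to 0.149 and CXCL8 -0.177 to 0.0587. At the low dose of EESF IL11 had -0.0286 to 0.0316 and CXCL8 -0.184 to 0.094. From the low to the medium dose IL6 had -0.0417 to 0.251 with WESF and IL11 -0.0513 to 0.0668 with EESF. Between extracts IL1A had -0.0461 to 0.423 and IL1B -0.18 to 0.00675 at the medium dose, and CXCL8 -0.147 to 0.125 at the low dose. For the medium minus the low dose CCL2 had -0.0704 to 0.187 and LIF -0.0609 to 0.0481. IL11 at the medium dose of EESF also turned to -0.00465 (DESeq2), -0.0043 (DESeq2's size factors), -0.0167 (all genes), -0.00552 (thinned) and -0.00538 (all 4 groups). Thinned counts turned IL1A to 0.209 and CXCL8 to 0.0886 at the low dose of WESF. They turned IL11 to 0.00323 at the low dose of EESF and to -0.00588 from its low to its medium dose, and LIF to 0.0308 for the medium minus the low dose between extracts.

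Correlations did not settle whether replicate numbers pair the libraries. Deviations of same-numbered libraries correlated at -0.1369 to 0.114 in batch A, with 1 of 18 pairs over 0.1, and at -0.1945 to 0.07455 in batch B, with 0 of 18. Libraries correlated best with their own number in 2 of 12 cases in batch A and 6 of 12 in batch B. With a replicate block the medium-dose interaction gave 0 member DEGs (CCL2 0.728, edgeR adjusted p = 0.144), IL1B at the medium dose of WESF had an adjusted p of 0.0857, and IL1A at the low dose of WESF turned to 0.00231. The block changed no other count of member DEGs.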
